A study of Mus musculus with 12 samples.

Results

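The Rhox genes Rhox5, Rhox6, Rhox9 and Rhox13 were followed in primordial germ cells, which later give rise to eggs and sperm, sorted from female mouse embryos at E14.5. The 4 genes are the rows of those names in the deposited count table, 4 of 35976 gene rows, and the table holds 29 further rows whose names begin with Rhox. They were chosen by name, with their counts and their fold changes against WT in these same 12 libraries already known, so their levels and fold changes are given as a description and no p-value is read for them. RNA was sequenced from 4 groups of 3 libraries, each from 5000 cells sorted by an Oct4-GFP reporter that all groups carried. HxD was Tet1HxD/HxD and carries a catalytically dead TET1. KO was Tet1-/-. V was Tet1V/V, a form that the labels describe as stalling at 5-hydroxymethylcytosine. WT was wild type, and HxD, KO and V were each compared with it to ask which transcripts depend on TET1 and its activity. The labels name no separate embryos or litters for the 3 libraries of a group, so the spread between libraries may be partly technical.

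Rhox genes encode homeodomain transcription factors and lie in 1 cluster on the mouse X chromosome. They are known for expression in the testis, the ovary and the placenta, and several of them are silenced by DNA methylation in somatic tissues. TET1 oxidizes 5-methylcytosine in DNA, a step towards its removal, and primordial germ cells lose most of their DNA methylation during development. Rhox5, formerly Pem, is the founding member and is expressed in Sertoli cells, oocytes, placenta and embryonic stem cells. Rhox6 (Psx1) and Rhox9 (Psx2 or Gpbox) form a closely related pair expressed in placenta and germ cells. Rhox13 is expressed in germ cells of fetal gonads and in spermatogonia.

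Because reads from sister copies can be hard to tell apart, the coding sequences of the 4 genes were compared in the GENCODE M21 transcripts of build GRCm38. Rhox6 (chrX:37826910-37829857, plus strand, ENSMUSG00000006200.3) and Rhox9 (chrX:37899097-37901770, minus strand, ENSMUSG00000068048.8) each have 681 coding bases without the stop codon, of which 617 were identical (90.6%). Their homeoboxes, the 60 codons for the DNA-binding domain, are shown 5′ to 3′ because they are the stretch that defines the family, with the bases that differ between the pair in capitals. The stretch was placed by a script from the conserved tryptophan at codon 48 of the homeobox, and it is the spliced coding sequence within the gene spans above.
Rhox6: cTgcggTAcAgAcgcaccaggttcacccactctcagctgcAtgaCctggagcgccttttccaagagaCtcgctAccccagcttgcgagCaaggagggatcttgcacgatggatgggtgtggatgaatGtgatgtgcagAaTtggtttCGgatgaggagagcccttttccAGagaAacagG
Rhox9: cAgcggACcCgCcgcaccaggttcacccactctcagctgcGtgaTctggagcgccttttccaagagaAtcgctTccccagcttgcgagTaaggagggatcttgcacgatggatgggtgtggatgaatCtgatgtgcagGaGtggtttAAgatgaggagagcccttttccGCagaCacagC
The homeoboxes differed at 19 of 180 bases. Of all 50-base windows of the Rhox6 coding sequence, 17.7% occurred exactly in a Rhox9 transcript and in no other gene, and the share was 10.7% for 100-base windows. The same shares held for Rhox9 against Rhox6. Most of the coding length of both genes therefore carries bases that separate them, although the sources used here give neither the read length nor the treatment of reads that fit several genes. Rhox5 (chrX:37804842-37808876, plus strand, ENSMUSG00000095180.8) and Rhox13 (chrX:38121219-38129967, plus strand, ENSMUSG00000050197.5) had no such window of either length in a transcript of another gene. Over aligned coding bases, Rhox5 was 62.5% identical to Rhox6, 67% to Rhox9 and 65% to Rhox13.

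TET1 acts on CpG sites, so the 250 bases before the start site were taken from the RefSeq promoter table of GRCm38.p6, which held 2 of the 4 genes. Both are on the plus strand and are shown 5′ to 3′ with each CpG in capitals, Rhox5 at chrX:37754358-37754607 and Rhox13 at chrX:38120590-38120839. The RefSeq start of Rhox5 lies far upstream of the GENCODE gene span given above, which begins at chrX:37804842. Which start these cells use was not tested.
Rhox5: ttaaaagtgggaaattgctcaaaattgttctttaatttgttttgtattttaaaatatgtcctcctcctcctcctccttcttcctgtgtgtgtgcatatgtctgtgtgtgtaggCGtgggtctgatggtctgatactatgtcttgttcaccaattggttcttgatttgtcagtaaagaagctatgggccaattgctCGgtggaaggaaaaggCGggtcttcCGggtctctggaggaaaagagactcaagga
Rhox13: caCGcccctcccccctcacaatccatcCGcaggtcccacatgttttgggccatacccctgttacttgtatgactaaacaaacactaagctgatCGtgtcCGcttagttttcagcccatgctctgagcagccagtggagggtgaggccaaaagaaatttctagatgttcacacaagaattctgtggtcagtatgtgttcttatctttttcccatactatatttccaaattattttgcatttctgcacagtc
Each window held 4 CpG sites. The median over 32851 promoter windows of the same length was 6, and 62.2% of them held at least 4. No methylation value enters here, and the windows describe sequence alone.

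Total counts per library ranged from 18471158 to 29495313. Libraries also differed in how many genes had a count, from 12568 in KO3 and 12815 in HxD1 to 17614 in HxD3. Values are CPM, each count as a rate of its library's TMM-adjusted total, and a floor of 3 counts corresponded to between 0.0996 and 0.168 CPM. The 8 germ cell markers, among them Ddx4, Dazl and Dppa3, were all detected. They summed to between 2935 and 3393 CPM in HxD, between 3155 and 3521 in KO and between 2903 and 3415 in V, against 3415 to 3855 in WT. Ddx4 and Dazl, which weigh heavily in these sums, had negative log2 fold changes in each mutant. The other markers, 6 of 8, had positive values, and the median over all 8 was 0.49 in HxD, 0.58 in KO and 0.63 in V. Dazl was called lower in all 3 mutants by edgeR, and Tfap2c in KO and Pou5f1 in V were called higher. The 10 gonadal somatic markers, among them Wt1, Foxl2 and Nr5a1, summed to 0.0352 to 9.37 CPM in HxD, 4.35 to 10.5 in KO and 7.23 to 37.2 in V, against 2.77 to 26.4 in WT. The sums of the 7 blood and the 5 endothelial markers reached 26.0 and 19.95 CPM. The 9 trophoblast genes summed to 125.4 to 170.3 CPM in HxD, 125.2 to 241.5 in KO and 108.3 to 174.6 in V. In WT they summed to 95.9 to 169.1 CPM. Prl3d1 was at 0 throughout and Plac1 and Tpbpa were near 0, while Cdx2 averaged 113 CPM in HxD, 154 in KO, 114 in V and 91.8 in WT. Hand1 averaged 16.2 CPM in HxD, 16.1 in KO, 17.3 in V and 19.2 in WT, and Gcm1 and Ascl2 were detected at lower levels. Of these lists, 8 gonadal somatic, 2 blood, 3 endothelial and 5 trophoblast genes were tested, and the others were too low to test. None of those tested was called in any comparison with WT by edgeR, DESeq2 or limma-voom. At an unadjusted edgeR p under 0.05 there was 1, a trophoblast gene in KO. With so few genes tested, the lack of calls does not show equal purity.

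Rhox6 and Rhox9 were higher in each of the 9 mutant libraries than in each of the 3 WT libraries, and Rhox5 was higher in 7 of 9. Rhox13 was low in the mutants and varied widely in WT. Of the 16166 genes tested, 289 (1.79%) lay above WT in all 9 mutant libraries, and 331 (2.05%) lay below. Taken 1 mutant at a time, the share above WT was 6.43% in HxD, 8.17% in KO and 8.7% in V. Since the 3 comparisons share the WT libraries, these are not 3 separate observations. In bulk libraries, fewer expressing cells and less RNA per cell cannot be told apart.

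Rhox6 was at 373, 402 and 314 CPM in HxD1, HxD2 and HxD3. The KO libraries stood at 384, 331 and 487 CPM and the V libraries at 393, 351 and 373 CPM, against 236, 267 and 216 CPM for WT. No mutant library overlapped WT, the nearest pair being HxD3 and WT2. The group means ran from 363 ± 44.5 CPM in HxD through 401 ± 79.4 in KO and 372 ± 21.1 in V to 239.6 ± 25.2 in WT (SD, n = 3). In order of level, KO, V and HxD came above WT, and the libraries of the 3 mutants overlapped one another. Against WT, the log2 fold change was 0.60 ± 0.17 in HxD, 0.74 ± 0.17 in KO and 0.64 ± 0.17 in V (SE). Between mutants the log2 differences were -0.14 ± 0.17 for HxD against KO, -0.10 ± 0.17 for V against KO and -0.037 ± 0.17 for HxD against V.

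Rhox9, the partner of Rhox6, also separated every mutant library from WT. Its levels were 648, 684 and 578 CPM in HxD, with KO at 697, 629 and 807 CPM and V at 805, 741 and 678 CPM, against 467, 484 and 542 CPM in WT. The closest pair was HxD3 at 578 CPM and WT3 at 542. Means were 636 ± 54.0 CPM in HxD, 711 ± 89.9 in KO and 741 ± 63.8 in V, against 497 ± 39.1 in WT (SD, n = 3). V and KO overlapped at the top, HxD overlapped both, and WT came last. The log2 fold changes were 0.36 ± 0.16 in HxD, 0.52 ± 0.16 in KO and 0.58 ± 0.16 in V (SE). Between mutants they were -0.16 ± 0.16 for HxD against KO, 0.060 ± 0.16 for V against KO and -0.22 ± 0.16 for HxD against V.

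Rhox5, the founding gene, was the most abundant of the 4 per coding length, at 1304 CPM per kilobase in HxD, 1316 in KO and 1481 in V, against 1001 in WT. On that scale Rhox9 had levels of 934, 1045 and 1089 in HxD, KO and V against 731 in WT. Rhox6 had 533, 588 and 547 in HxD, KO and V against 352 in WT, and Rhox13 had 2.79, 0.717 and 1.43 against 9.06 in WT, so the order was the same in every group. By library, Rhox5 was at 862, 915 and 688 CPM in HxD, with KO at 845, 679 and 963 CPM and V at 1034, 852 and 913 CPM, against 716, 596 and 579.7 CPM in WT. The V libraries all exceeded WT, whereas HxD3 and KO2 were below WT1. Group means were 822 ± 119 CPM in HxD, 829 ± 143 in KO and 933 ± 92.2 in V, against 630.4 ± 74.6 in WT (SD, n = 3). The log2 fold changes were 0.38 ± 0.17 in HxD, 0.40 ± 0.17 in KO and 0.57 ± 0.17 in V (SE). The mutants overlapped one another, and the log2 differences between them lay between -0.18 and 0.17 (SE 0.17).

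**Figure D1:**
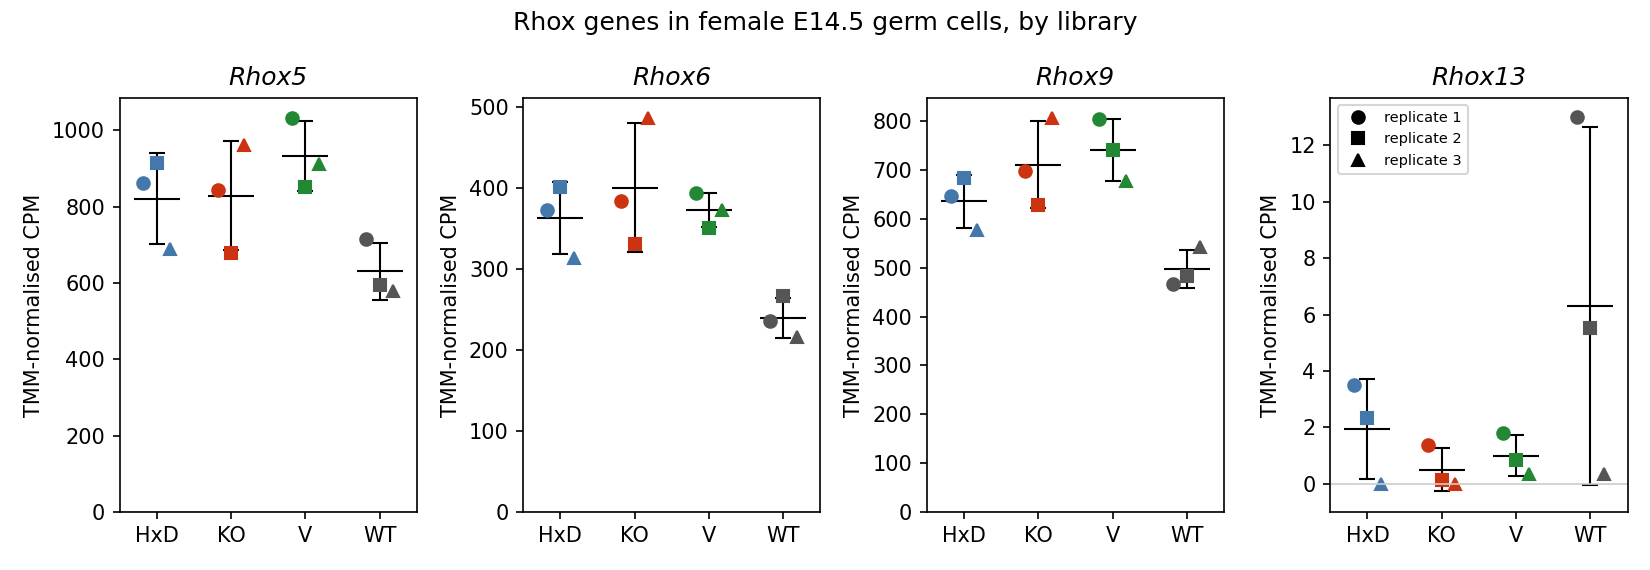
TMM-normalised CPM of Rhox5, Rhox6, Rhox9 and Rhox13 (vertical axes, linear, 1 scale per gene) in the 3 libraries of HxD, KO, V and WT; symbols mark the replicate number, horizontal bars the group mean and whiskers the SD. Rhox6 and Rhox9 lie above WT in all 9 mutant libraries, whereas Rhox13 spans 0.358 to 13.0 CPM within WT.

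Rhox13 had 99, 56 and 0 counts in HxD, 36, 3 and 0 in KO and 32, 25 and 10 in V, against 379, 118 and 9 in WT. These are levels of 3.49, 2.33 and 0 CPM in HxD, with KO at 1.37, 0.124 and 0 CPM and V at 1.80, 0.830 and 0.354 CPM, against 13.0, 5.53 and 0.358 CPM in WT. WT1 and WT2 were above every mutant library, and WT3 was level with the lowest V library, so every group overlapped WT. WT1 also had the highest gonadal somatic and blood marker sums of the WT libraries, at 26.4 and 26.0 CPM. V1 had a higher gonadal somatic sum, 37.2 CPM, with 1.80 CPM of Rhox13. The part of other cells in the Rhox13 values was not tested. The 2 libraries at 0 were HxD3, which had the most genes with a count, and KO3, which had the fewest; 3 counts would have been 0.112 and 0.132 CPM there. Group means were 1.94 ± 1.78 CPM in HxD, 0.499 ± 0.760 in KO and 0.994 ± 0.735 in V, against 6.30 ± 6.37 in WT (SD, n = 3). The fitted log2 fold changes were -1.70 ± 1.80 in HxD, -3.64 ± 1.95 in KO and -2.66 ± 1.87 in V (SE). They rested on single libraries, being -0.60 for HxD, -2.55 for KO and -1.57 for V without WT1, and -6.55 for KO without KO1. The HxD value was also -1.12 without HxD3. At these counts neither a difference nor its absence could be established.

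Stra8, a factor for meiotic entry that responds to retinoic acid, was read in the same libraries. Its levels were 169, 175 and 74.6 CPM in HxD, with KO at 73.9, 32.2 and 114.5 CPM and V at 45.8, 177 and 145 CPM, against 977, 423 and 247 CPM in WT. WT1 was the highest and WT3 the lowest WT library for both genes, and HxD3 was the lowest HxD library. The mutants did not otherwise share an order, since KO3 had the most Stra8 of the KO libraries and no Rhox13, and V1 had the least Stra8 and the most Rhox13 of the V libraries. Of the 5 meiotic entry genes Stra8, Gm4969 (Meiosin), Rec8, Sycp3 and Dazl, all 5 were called lower in KO, 2 in V (Stra8 and Dazl) and 1 in HxD (Dazl) by edgeR over all genes, where 1.22%, 0.155% and 0.0309% of genes were called in KO, V and HxD. DESeq2 and limma-voom each called 5 in KO, 2 in V and 3 in HxD, and all 5 had an unadjusted edgeR p under 0.05 in each comparison. Their median log2 fold change was -2.08 in KO, -1.36 in V and -1.87 in HxD. Their part in the Rhox13 values was not tested.

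**Figure D2:**
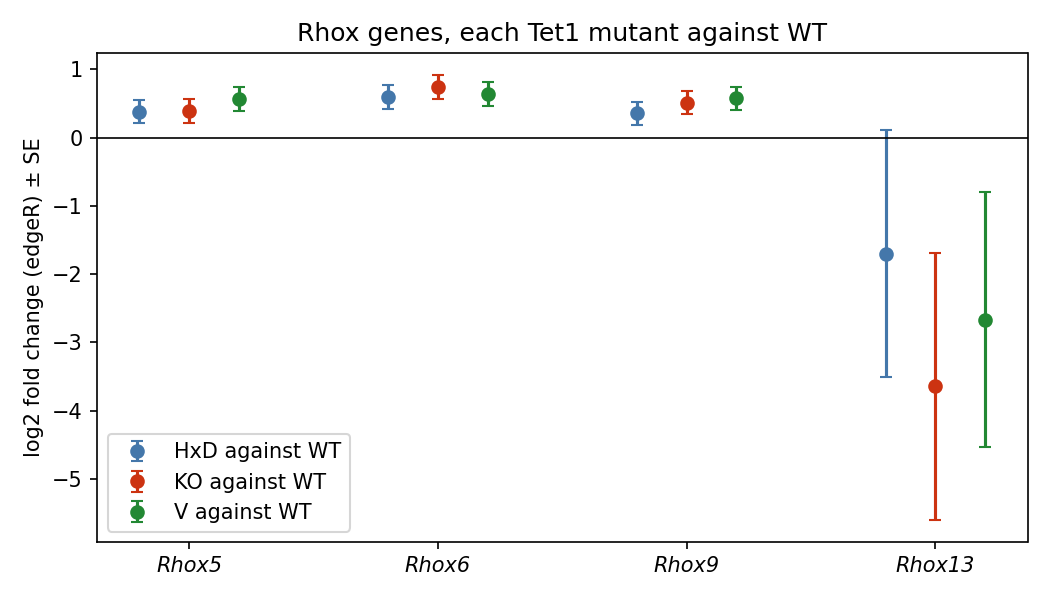
Log2 fold changes of the 4 genes in HxD, KO and V against WT from the edgeR fit of all 12 libraries (vertical axis; whiskers are SE, horizontal line 0). Rhox5, Rhox6 and Rhox9 lie between 0.36 and 0.74, and Rhox13 lies between -3.64 and -1.70 with standard errors of at least 1.80.

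All 4 genes passed the low-count filter in this fit. The call rule was an adjusted p under 0.05 in edgeR's quasi-likelihood test over all 16166 genes. By that rule 197 genes changed in KO (1.22%), 117 of them higher (0.724%) and 80 lower (0.495%), and with the size factors of DESeq2 the KO split was 90 higher and 95 lower. In V it called 25 genes (0.155%), 11 higher (0.068%) and 14 lower (0.0866%), a split of 10 and 22 with those size factors. In HxD it called 5 (0.0309%), 1 higher (0.00619%) and 4 lower (0.0247%). Rhox6 in KO was the 1 call among the 4 genes, and no call was made for them in HxD or V by edgeR. At an unadjusted edgeR p under 0.05 the count was 3 of 4 in each comparison, and over all genes tested it was 1172 in HxD (7.25%), 2138 in KO (13.2%) and 1567 in V (9.69%). DESeq2 called Rhox6 and Rhox9 in KO and in V and none in HxD, and limma-voom called Rhox6 in KO and none in HxD or V. Nothing is read from these counts, since the genes were chosen with the same values known. The Rhox6 call in KO was lost without KO1, KO3, WT1, WT2 or WT3, with log2 fold changes of 0.77, 0.58, 0.73, 0.82 and 0.67. HxD1, KO1 and KO3 had the fewest genes with a count of all libraries, at 12815, 13879 and 12568. In a fit without them, KO2 alone stands for KO and takes its spread from the remaining groups. The KO values were then 0.47 for Rhox6, 0.34 for Rhox9 and 0.11 for Rhox5.

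The median log2 fold change of the 4 genes was 0.37 in HxD, 0.46 in KO and 0.57 in V. That of all genes tested was -0.0071, -0.017 and 0, and that of the 8 germ cell markers was 0.49, 0.58 and 0.63. Rhox6, Rhox9 and Rhox5 also varied together between libraries, with Pearson correlations of log2 CPM of 0.89 for Rhox6 and Rhox9, 0.86 for Rhox5 and Rhox6 and 0.85 for Rhox5 and Rhox9 over the 12 libraries. These include the shift between mutants and WT and whatever depth and handling the libraries share. Within KO, KO3 was highest and KO2 lowest for all of them, and within HxD, HxD2 was highest and HxD3 lowest. KO3 had the fewest genes with a count of any library, and HxD3 and KO2 the most within their groups. HxD1 had the fewest in HxD but lay between HxD2 and HxD3 for Rhox5, Rhox6 and Rhox9. The other groups did not follow that order: V2 and WT3 had the fewest genes in V and WT, and each was the lowest of its group for Rhox5 and Rhox6. The part of library capture in this spread was not tested. Rhox13 correlated at -0.026 with Rhox5, -0.32 with Rhox6 and -0.39 with Rhox9.

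**Figure D3:**
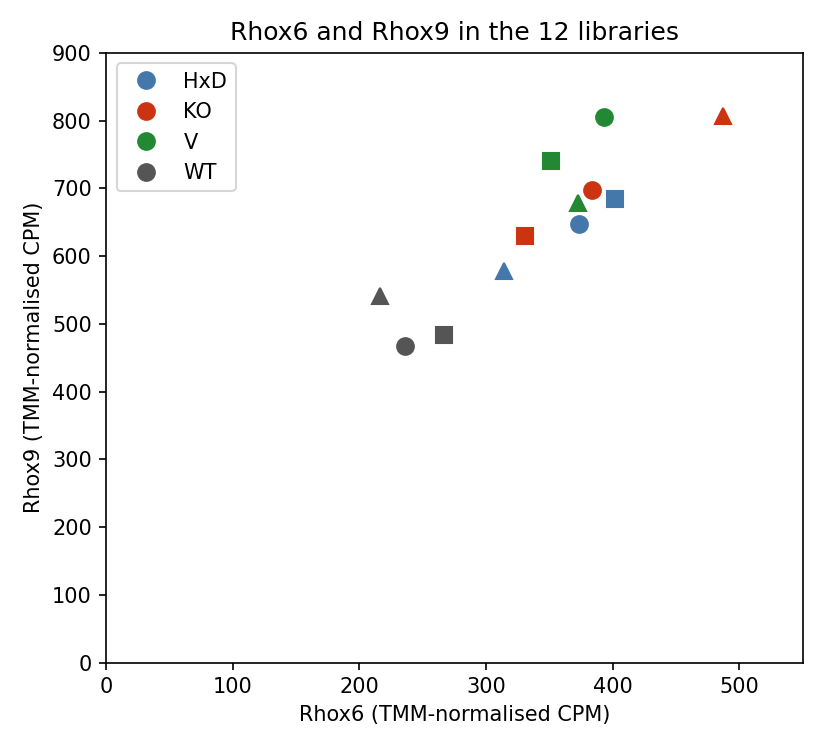
Rhox9 against Rhox6, both in TMM-normalised CPM, with 1 point for each of the 12 libraries, coloured by group; circles, squares and triangles are replicates 1, 2 and 3. The 3 WT points lie below and left of the 9 mutant points, and KO3 is the farthest point at 487 CPM of Rhox6 and 807 CPM of Rhox9.

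To see whether the pair shifted as a whole, Rhox6 was expressed as a share of the counts of Rhox6 and Rhox9 together. The share was 36.3% ± 0.914 in HxD, 35.9% ± 1.61 in KO and 33.5% ± 1.76 in V, against 32.5% ± 3.60 in WT (SD, n = 3). WT2 at 35.5% lay within the range of HxD and KO, and WT3 was the lowest library at 28.6%. With both rows summed before the fit, the log2 fold changes were 0.44 in HxD, 0.59 in KO and 0.60 in V. The sum does not depend on how reads were divided between the pair. It can still depend on whether reads that fit both genes were dropped or counted for both, which is not given.

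The rest of the cluster was examined with the fit over all genes. Of the 29 other Rhox rows, 10 had no count in any library, among them Rhox11 and Rhox12, 4 had counts but were too low to test, and 15 were tested. None of the 15 was called in HxD, KO or V by edgeR, DESeq2 or limma-voom, and 1, 2 and 1 of them had an unadjusted edgeR p under 0.05 in HxD, KO and V. These are 6.67%, 13.3% and 6.67%, close to the 7.25%, 13.2% and 9.69% over all genes tested. Their median log2 fold change was -0.36 in HxD, -0.91 in KO and -0.17 in V. Over the 8 rows averaging 5 CPM or more it was -0.26, -0.26 and -0.13, and the lower KO value over all 15 includes rows with no count in KO, such as Rhox10 and Rhox4e. Of the 15, 3 had a positive value in HxD, 4 in KO and 6 in V. The 4 genes made up between 94.5% and 96.4% of all Rhox counts in the mutant libraries and between 91.0% and 93.2% in WT.

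Rhox1 lies at the end of the cluster opposite Rhox13. Its levels were 19.6, 27.3 and 32.0 CPM in HxD, with KO at 30.9, 27.4 and 18.4 CPM and V at 24.7, 30.8 and 36.9 CPM, against 57.0, 45.4 and 42.2 CPM in WT. All 9 mutant libraries were below the 3 WT libraries, the opposite side from Rhox6 and Rhox9. The log2 fold changes were -0.87 ± 0.30 in HxD, -0.91 ± 0.30 in KO and -0.65 ± 0.30 in V (SE), and none was called (edgeR, adjusted p = 0.482, 0.141 and 0.483). Among the 15 tested rows, Rhox1 lay below WT in every library of all 3 mutants, Rhox7a did so in KO and Rhox2d in V, and Rhox2g lay above WT in HxD. Over all genes tested, 5.77% lay fully below WT in HxD, 8.36% in KO and 7.48% in V, and 6.43% fully above in HxD.

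Rhox7a, which lies between Rhox6 and Rhox9, was at 1.41, 4.80 and 1.89 CPM in KO against 10.3, 7.83 and 10.3 CPM in WT. Its log2 fold change in KO was -1.81 ± 0.76 (SE; edgeR, adjusted p = 0.295). In HxD and V its values were -0.17 ± 0.74 and -0.17 ± 0.74. Of its 50-base coding windows, 54.9% occur in transcripts of Rhox7b or Rhox7 pseudogenes, so its counts are uncertain. Rhox8, a gene of gonadal somatic cells, was at 0, 2.08 and 1.31 CPM in HxD, with KO at 1.18, 0 and 0.0440 CPM and V at 4.61, 3.25 and 0.815 CPM, against 7.32, 1.17 and 1.79 CPM in WT. Its groups all overlapped WT.

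The Rhox2 and Rhox4 copies with a group mean of at least 1 CPM were Rhox2a, Rhox2b, Rhox2c, Rhox2d, Rhox2f, Rhox2g, Rhox2h, Rhox4c, Rhox4d and Rhox4g. Their highest group means ranged from 1.72 CPM for Rhox2f to 16.5 CPM for Rhox2a in KO. Rhox2a averaged 7.69 CPM in HxD, 16.5 in KO and 11.4 in V, against 9.69 in WT. Its log2 fold change in KO was 0.77 ± 0.57 (SE, edgeR adjusted p = 0.587). Some copies went lower in KO, such as Rhox2c at -1.78 ± 1.14 (SE, edgeR adjusted p = 0.51). The Rhox2 and Rhox4 copies share sequence to differing degrees. Of 50-base coding windows, 91% of Rhox2a, 93.3% of Rhox2c and 94% of Rhox4c occurred in another gene, and all Rhox3a and Rhox4a windows did. The share was lower for others, at 36.8% of Rhox2d and 46.2% of Rhox2f. The counts of these copies are uncertain for that reason, and Rhox3a, Rhox4a and Rhox2e were listed at 0 in every library.

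Genes next to the cluster were examined in the same fit. Of the 10 nearest genes with a row on each side, 13 of 20 were tested, and none was called in HxD, KO or V by edgeR, DESeq2 or limma-voom; 0, 2 and 1 had an unadjusted edgeR p under 0.05. Their median log2 fold change was -0.21 in HxD, -0.046 in KO and -0.13 in V. Over the 10 averaging 5 CPM or more it was -0.17, 0.096 and -0.083, so its sign in KO depends on the low genes. Zbtb33, which encodes the methyl-DNA binding protein Kaiso and is the nearest gene beyond Rhox13, averaged 50.8 CPM in HxD, 73.6 in KO and 48.5 in V, against 53.3 in WT, and was chosen after its values were seen (log2 0.46 ± 0.23 in KO; edgeR, adjusted p = 0.378). Over all 556 tested X-linked genes other than the 4, the median was -0.11 in HxD, -0.081 in KO and -0.065 in V. Over the 360 averaging 5 CPM or more it was -0.059, -0.0074 and -0.024. Of the 556, edgeR called 0 in HxD, 21 in KO (3.78%, against 1.22% of all genes tested) and 4 in V (0.719%, against 0.155%). In KO 14 of these were higher and 7 lower, and in V 2 were higher and 2 lower. At an unadjusted p under 0.05 there were 50 in HxD (8.99%), 97 in KO (17.4%) and 72 in V (12.9%). DESeq2 called 3, 41 and 11, and limma-voom called 1, 23 and 2.

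**Figure D4:**
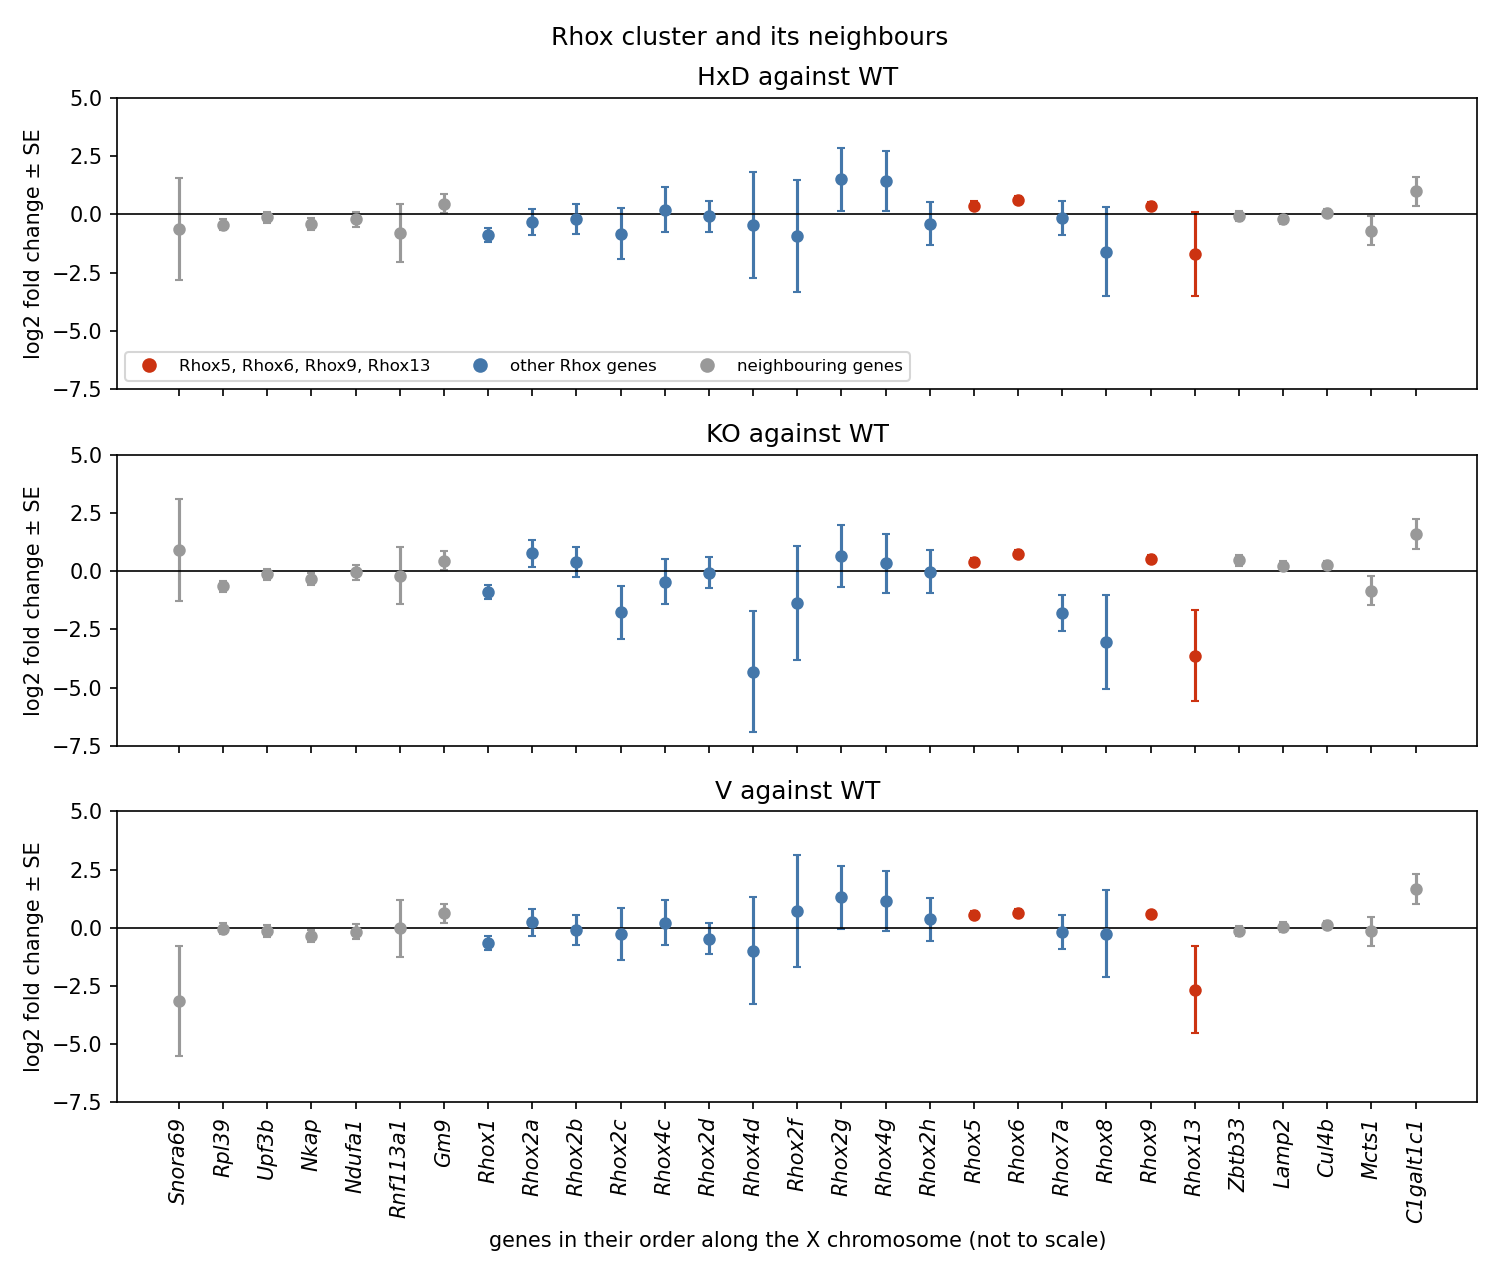
Log2 fold changes ± SE (vertical axis) in HxD, KO and V against WT for 29 genes of the Rhox cluster and its flanks with a group mean of at least 1 CPM, in their order along the X chromosome and not to scale; red marks the 4 genes, blue 13 other Rhox genes and grey 12 neighbours. Rhox5, Rhox6 and Rhox9 lie above 0 in all 3 panels with small errors, while the low copies between Rhox1 and Rhox5 have wide errors on both sides of 0.

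Genes known to act on Rhox promoters were then listed. Of 11 repressors and activators of Rhox5, 9 were tested, and Uhrf1, which directs maintenance DNA methylation, was the 1 called, lower in KO. Uhrf1 was at 42.7, 42.2 and 60.4 CPM in KO against 103, 113 and 78.2 CPM in WT (log2 -1.02 ± 0.23, SE; edgeR, adjusted p = 0.0223). In HxD and V it had log2 fold changes of -0.92 ± 0.23 and -0.92 ± 0.23 (edgeR, adjusted p = 0.193 and 0.0841). For the other 8, among them the methyltransferases Dnmt1, Dnmt3a and Dnmt3b, the remodeller Hells and the activators Gabpa and Sp1, no call was made in KO. In HxD and V none of the 9 was called by edgeR or limma-voom, 2 had an unadjusted edgeR p under 0.05 in each, and DESeq2 called 1 in each. Of 6 genes of PRC1.6, a Polycomb complex that represses germline promoters, none was called by edgeR, DESeq2 or limma-voom (2, 0 and 1 at an unadjusted edgeR p under 0.05 in HxD, KO and V).

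Other X-linked germline genes were set beside the 4. Of 20 such genes, 18 were tested, and their median log2 fold change was -1.42 in HxD, -1.01 in KO and -0.89 in V. Over the 12 averaging 5 CPM or more it was -0.89 in HxD, -1.07 in KO and -0.93 in V, so the order of the mutants depends on the low genes. Taf7l, a germ cell TFIID subunit paralog, was called lower in KO and V (log2 -3.12 ± 0.50 and -2.54 ± 0.49; edgeR, adjusted p = 0.00162 and 0.0335). Tex11, a meiotic crossover gene, was called lower in KO (log2 -1.80 ± 0.39; edgeR, adjusted p = 0.0182). None was called in HxD by edgeR, where 3 had an unadjusted p under 0.05 and DESeq2 and limma-voom each called 1. Positive values were found for 2 of 18 in HxD, 4 in KO and 3 in V.

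The genes whose log2 CPM most resembled each of the 4 over the 12 libraries were ranked among genes averaging 5 CPM or more. For Rhox9 these were Slc25a4 (r = 0.95), Pus1, Ddx41, Cdk4 and Exosc6, and for Rhox6 they were Cwf19l2 (r = 0.91), Rab15, Rcl1, Sept5 and Cnn3. For Rhox5 they were Txndc17 (r = 0.89), Adh5, Npm1, Psmb7 and Nmt1, and for Rhox13 Tmem30a (r = 0.88), Fkbpl, Prmt9, Anapc4 and Tnnt1. A correlation above 0.9 was reached by 9 genes for Rhox9 and 3 for Rhox6, and by none for Rhox5 or Rhox13, among 10027 genes ranked for Rhox5, Rhox6 and Rhox9 and 10028 for Rhox13. These are descriptions over libraries that share group, depth and capture.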

How the data were processed

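Gene expression was measured by RNA-seq in 12 libraries, grouped by their titles. Counts per gene, whole and not normalized, were deposited by the authors in a single table with gene symbols. Per the submitters' processing notes, the tools were featureCounts 2.0.3, STAR 2.7.10b, Trim Galore 0.6.7, SAMtools 1.9 and FastQC, and the builds GRCm39 and mm10 are named without their roles. The sources used here give no annotation, strand setting or treatment of reads that fit several genes, so printed coordinates come from the reference tables. Reads of overlapping or antisense genes could not be told apart.

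The 4 genes and all lists were chosen with earlier results of these data known. edgeR 4.0.16 in R 4.3.3 (two-sided quasi-likelihood F test) was run on the deposited counts with TMM, default filterByExpr and group as the only term in 1 fit of all 12 libraries, with Benjamini-Hochberg adjustment over 16166 genes and calls at an adjusted p under 0.05. Standard errors are |log2 fold change| over √F. DESeq2 1.42.0, limma-voom (limma 3.58.1), other filters and scalings, left-out libraries and a replicate block were alternatives. Scripts were tested on simulated data. Besides the 4 genes, other Rhox rows with a group mean of at least 1 CPM and called list genes are named by rule. So are, for each of the 4, the 5 most correlated genes (log2 CPM, prior count 2, predicted genes left out). Which of these other Rhox rows have values printed was chosen after the values were seen. Other names, among them Zbtb33, Cdx2, uncalled list members and Rhox rows at or near 0, are examples chosen after their values were seen. Counts of replicates differed beyond sampling noise in every group (lowest chi-square over its degrees of freedom, 29.9), and all were kept as separate samples. That value cannot tell separate embryos from repeat libraries of the same pool. Reads without molecular identifiers are not independent molecules, so floors of 3 counts cover counting error only. Alignments used Biopython 1.88.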

Additional observations from a re-analysis of the deposited data

How the results depend on the processing

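The sign of the log2 fold change of each of the 4 genes against WT was kept in all alternatives run, 20 for Rhox5, 21 for Rhox6 and Rhox9 and 19 for Rhox13, which a mean of at least 5 CPM removes. Of these 243 values, 239 moved by less than 1 SD between replicates. The other 4 were all KO values. Those of Rhox5, Rhox6 and Rhox9 moved without HxD1, KO1 and KO3 (0.11, 0.47 and 0.34), and that of Rhox13 moved without KO1 (-6.55). In the first of these fits KO was KO2 alone, the lowest KO library for Rhox5, Rhox6 and Rhox9. Without KO1 the KO counts of Rhox13 were 3 in KO2 and 0 in KO3. Nothing further about these moves was tested. Leaving out a library of a group outside the comparison hardly changes a fold change, so the 239 include values that could hardly move. For Rhox13 the SD is wide, and its values ran from -2.56 to -0.60 in HxD and from -3.40 to -1.36 in V. Counts over all genes depended more on the setting. The HxD count of 5 was 63 by DESeq2, 15 by limma-voom, 71 with no low-count filter, 1 at a mean of at least 5 CPM, 20 with only 2 groups fitted, and from 1 to 35 with 1 library left out. The KO count of 197 was 487 by DESeq2, 464 with no filter, 30 without HxD1, KO1 and KO3, and from 31 to 357 with 1 library left out. The V count of 25 was 149 by DESeq2, 176 with no filter, 5 at a mean of at least 5 CPM, 16 without HxD1, KO1 and KO3, and from 2 to 110 with 1 library left out. The cause was not tested. Other Rhox genes called stayed at 0 in all 60 alternative fits. Neighbours called stayed at 0 in 59, and with no filter 1 was called in KO, Rpl39 (log2 -0.68; edgeR, adjusted p = 0.0230), named after its values were seen.

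Replicate numbers are shared by the titles. In deviations from the group means, 1 of 18 same-numbered pairs correlated above 0.1 (median -3.03e-05), against 4 of 36 other pairs. A correlation over many genes cannot show whether part of the genes share a batch. With the replicate block the counts were 22 in HxD, 285 in KO and 73 in V, higher than the 5, 197 and 25 without it. Whether the numbers pair the libraries was not tested further. Rhox13 and Rhox8 had no count in 2 libraries each, which limits their values, and shared sequence limits those of the Rhox2 and Rhox4 copies.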
